A study of Mus musculus with 18 samples.

Results

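The Kruppel-like factors described here were 10 transcription factor genes, Klf2, Klf3, Klf4, Klf5, Klf6, Klf9, Klf10, Klf11, Klf12 and Klf13. They were chosen by name, by taking the rows of the count table whose Ensembl identifier carries one of these symbols. This rule used no measured value, but earlier results of these data were known when the members were chosen. They make up 10 of the 17 protein-coding Klf genes in the mouse annotation and 10 of the 49671 genes in the table. All 10 passed the filter on low counts in every comparison.

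Kruppel-like factors bind CACCC-type and GC-rich DNA with zinc fingers at the end of the protein, and they differ in the part that recruits activators or repressors. Klf2, Klf4 and Klf5 belong to the naive pluripotency factors of mouse embryonic stem (ES) cells, where they share targets with Oct4, Sox2, Nanog and Esrrb and can partly stand in for each other. Klf4 is a target of Lif and Stat3 signalling, Klf2 protein is destabilised by Mek/Erk signalling, and Klf3 and Klf12 bind the corepressor CtBP, while Klf9, Klf10, Klf11 and Klf13 bind Sin3-type corepressors.

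Poly(A) RNA was sequenced from ES cells grown in a 3D hydrogel of extracellular matrix (Matrigel) in N2B27 medium, in 18 samples and 6 groups of 3. Wild-type E14 cells (strain 12910la), at passage 20, were cultured for 48 h with the solvent DMSO, with 3 µM of the Gsk3 inhibitor CHIR99021 (CH), with 2i, or with Fgf2 at 12 ng/ml together with Activin A at 20 ng/ml (Fgf2/Activin). The 2i medium held 3 µM CHIR99021 and 0.4 µM of the Mek inhibitor PD0325901. Esrrb fl/fl cells, a line labelled as derived from Acr-EGFP transgenic mice and used at passage 25, carried a tamoxifen-inducible Cre (MerCreMer) and were cultured for 24 h with 3 µM CHIR99021. They either had no pretreatment (Esrrb floxed) or had received 4-hydroxytamoxifen (4OHT) for 1 day before 3D culture to delete Esrrb (Esrrb null). The lines were kept in 2i and Lif beforehand. The Mek inhibitor was thus measured only on top of CH, the loss of Esrrb only in CH, and the deletion cannot be told apart from the exposure to 4OHT. The wild-type and Esrrb fl/fl cells differed in line, passage and time in culture, and their values are set side by side without a test.

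Gene counts summed to 25388139 to 37158661 per sample in the wild-type cultures and to 19915222 to 20140699 in the Esrrb fl/fl cultures. The libraries numbered 1 stood apart in every group. In the wild-type cultures their counts differed from those of replicates 2 and 3 by a chi-square per gene of 29.8 to 65.9, against 2.86 to 8.57 between replicates 2 and 3, and in the Esrrb fl/fl cultures by 11.8 to 15.6 against 1.46 to 2.22. Each comparison was therefore also fitted without these libraries. The labels do not say whether the 3 samples of a group came from separate cultures, so p-values measure only the spread between these samples, which may be technical. In such bulk samples a lower level in every cell and fewer cells that express a gene cannot be told apart.

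Levels are given as TMM-scaled CPM, in which the counts of each sample are rescaled to a common total. Fold changes and p-values are those of the quasi-likelihood test in edgeR, adjusted by Benjamini-Hochberg over all genes kept, and a gene was called at an adjusted p under 0.01 with an absolute log2 fold change above 1. Counts of genes at an unadjusted p under 0.05 are only a description, without the share over all genes at that threshold. Esrrb itself, counted over all its exons and not only those removed by Cre, was at 142, 109.9 and 109 CPM in the Esrrb floxed samples and at 58.9, 63.8 and 59.8 CPM in the Esrrb null samples. Esrrb mRNA was thus lower by a log2 difference of -0.99 ± 0.10 (SE, adjusted p = 7.44e-05), without overlap between the groups. This lay just under the fold threshold, so edgeR did not call Esrrb. These counts do not show how complete the deletion was. In the wild-type cultures Esrrb was at 30.2, 8.98 and 6.87 CPM in DMSO and at 363, 286 and 313 CPM in CH.

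Between CH and DMSO, 3 of the 10 members were higher (Klf2, Klf4 and Klf5), 1 was lower (Klf6), and the other 6 were not called. Of all 16413 genes tested, 7.51% were called higher and 10.2% lower. Klf2 and Klf4 differed most between CH and DMSO, Klf5 and Klf6 less, and the median log2 fold change of the 10 members was 0.18, beside -0.00220 over all genes tested.

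**Figure D1:**
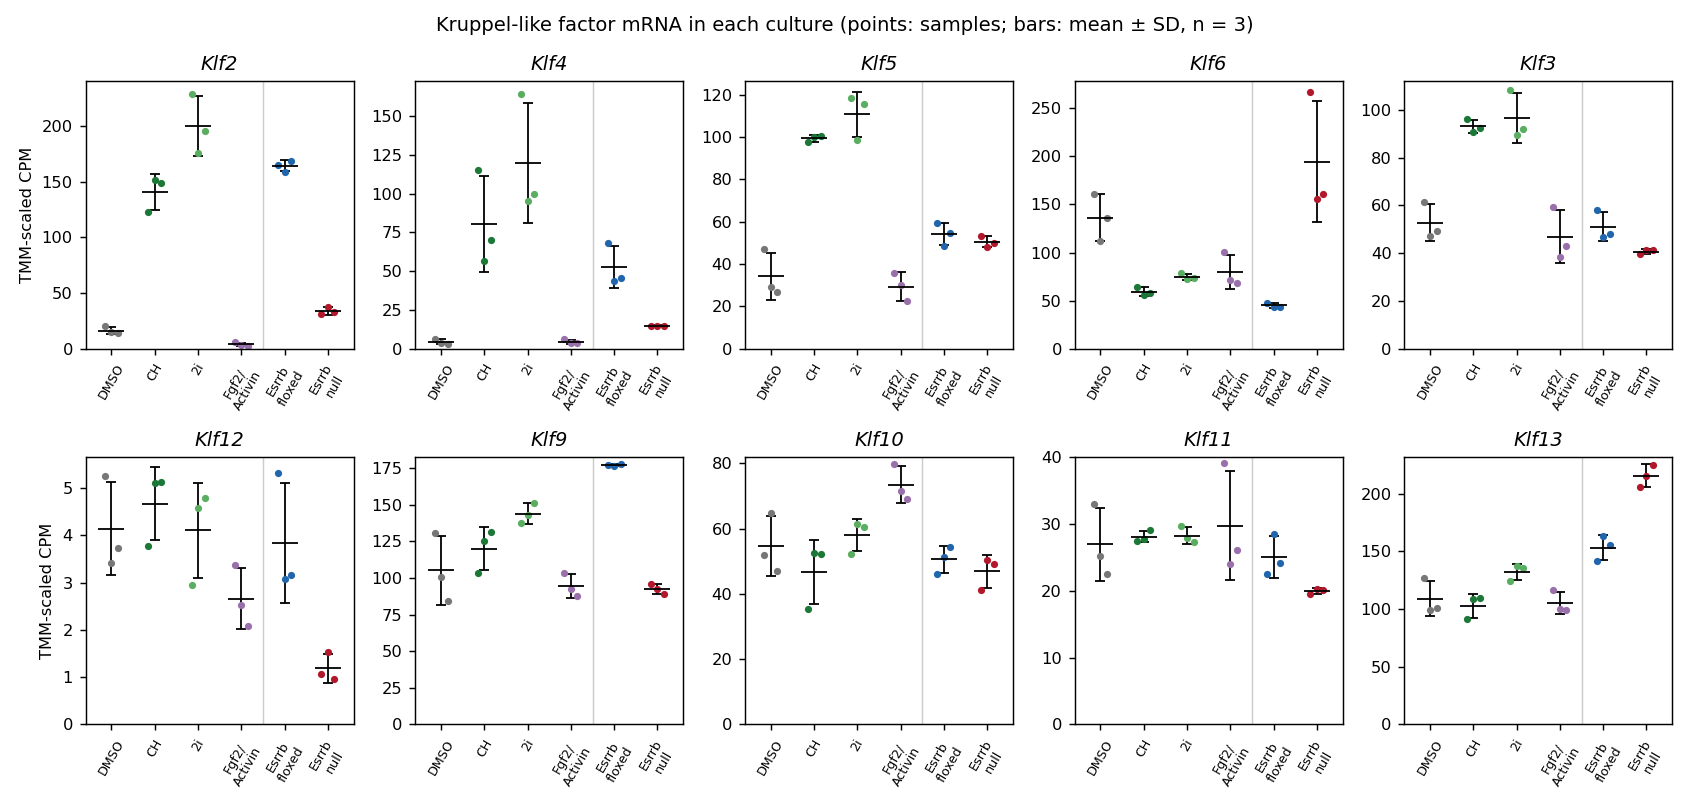
TMM-scaled CPM (vertical axis, from 0, with a scale of its own for each gene) of the 10 Kruppel-like factors in the 6 groups. Coloured points are single samples, black marks and bars the mean ± SD of 3 samples, and the grey line separates the wild-type (48 h) from the Esrrb fl/fl cultures (24 h). Klf2 and Klf4 were high in CH, 2i and Esrrb floxed cells and low in the other groups, whereas Klf6 was highest in Esrrb null cells, with 267 CPM in replicate 1.

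Klf2 (chromosome 8, 72319033 to 72321656 on GRCm38), a naive pluripotency factor, was at 20.0, 14.9 and 14.2 CPM in the 3 DMSO samples and at 122, 152 and 149 CPM in CH. Its log2 fold change was 3.10 ± 0.22 (SE, adjusted p = 1.67e-06), an 8.58-fold rise. Every CH sample lay far above every DMSO sample, and the ratios of same-numbered samples were 6.11, 10.2 and 10.5.

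Klf4 (chromosome 4, 55527143 to 55532466), a factor used in reprogramming to pluripotency, was at 6.48, 3.79 and 3.39 CPM in DMSO and at 115, 56.3 and 70.1 CPM in CH. It rose by 4.13 ± 0.38 on the log2 scale (SE, adjusted p = 1.01e-05), or 17.5-fold. The spread of Klf4 within CH was wide, with replicate 1 highest, but replicate 1 was also highest in DMSO, and the same-numbered ratios were 17.8, 14.9 and 20.6.

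Klf5 (chromosome 14, 99298691 to 99315036), which acts with Klf2 and Klf4 in self-renewal, was at 47.0, 29.3 and 26.6 CPM in DMSO and at 97.4, 99.9 and 101 CPM in CH. The log2 fold change was 1.53 ± 0.21 (SE, adjusted p = 0.000177), a 2.89-fold rise without overlap. Replicate 1 was the highest DMSO sample, as it was for Klf2 and Klf4.

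Klf6 (chromosome 13, 5861482 to 5870394), a widely expressed activator that is induced early in many differentiation and injury responses, went the other way. It was at 161, 112 and 136 CPM in DMSO and at 64.4, 55.9 and 57.8 CPM in CH. It fell by 1.20 on the log2 scale (SE 0.16, adjusted p = 0.000125), and the lowest DMSO sample was above the highest CH sample. Against a minimum change of 1 on the log2 scale (glmTreat), in place of no change, Klf5 (adjusted p = 0.0296) and Klf6 (adjusted p = 0.219) were no longer called.

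The promoters of Klf2, Klf4 and Klf6 are shown because these were the members called in both the CH and the Esrrb comparison, Klf2 and Klf4 in one direction and Klf6 in the other. Each is the 250 bases before the RefSeq start site on GRCm38.p6, written 5′ to 3′ on the strand of the gene. They lie at chr8:72318812-72319061 (plus strand), chr4:55532476-55532725 (minus strand) and chr13:5861239-5861488 (plus strand), and capitals mark matches to the CACCC-type letters CCNCNCCC, which Kruppel-like factors can bind, on either strand, where neighbouring matches overlap.
Klf2: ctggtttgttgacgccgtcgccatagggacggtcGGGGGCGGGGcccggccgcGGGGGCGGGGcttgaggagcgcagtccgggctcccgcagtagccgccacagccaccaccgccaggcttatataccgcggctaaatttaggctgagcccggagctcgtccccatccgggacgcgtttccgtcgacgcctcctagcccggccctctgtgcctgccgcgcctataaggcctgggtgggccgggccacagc
Klf4: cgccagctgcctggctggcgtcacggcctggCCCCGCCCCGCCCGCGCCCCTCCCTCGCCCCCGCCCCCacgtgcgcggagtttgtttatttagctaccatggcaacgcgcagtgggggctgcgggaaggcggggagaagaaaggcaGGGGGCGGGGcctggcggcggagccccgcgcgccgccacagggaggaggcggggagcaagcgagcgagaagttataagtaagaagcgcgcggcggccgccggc
Klf6: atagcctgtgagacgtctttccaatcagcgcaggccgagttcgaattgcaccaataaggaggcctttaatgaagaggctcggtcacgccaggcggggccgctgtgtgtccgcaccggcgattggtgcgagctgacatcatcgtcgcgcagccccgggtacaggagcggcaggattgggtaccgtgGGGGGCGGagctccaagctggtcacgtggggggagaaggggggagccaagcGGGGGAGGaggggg
Klf2 held 4 such matches, Klf4 held 9 and Klf6 held 2. RefSeq promoter sequences were found for 8 of the 10 members, all except Klf5 and Klf10. The CACCC-type letters were present in 7 of the 8, Klf9 being the exception, and in 45.9% of 32807 mouse promoters of the same length. Their GC content was 71.2%, 74.0% and 64.8% for Klf2, Klf4 and Klf6. The half-site of Esrrb (AAGGTCA), present in 4.08% of all promoters, and the letters CTTTGA bound by Tcf/Lef proteins, present in 13.8%, were searched on both strands and were not in any of these 8 windows, which says nothing of sites elsewhere. The Klf12 window (chr14:100149797-100150046, minus strand, 48% GC) belongs to a start site inside the annotated gene, whose outer start is at 100284679.

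The 6 members not called between CH and DMSO were the CtBP-binding factors and the Sin3-binding factors. Klf3 (chromosome 5, 64803388 to 64832901), a repressor, came closest, with 61.6, 47.3 and 49.4 CPM in DMSO and 95.9, 90.8 and 92.4 CPM in CH. Its samples did not overlap and its adjusted p was 0.00157, but its log2 difference of 0.82 ± 0.16 (SE) lay under the fold threshold. Reads of Klf3 can include those of Gm20033, which overlaps 3.59% of its exon length on the opposite strand, since counting ignored strand. Klf12 (chromosome 14, 99870632 to 100284679), the other CtBP-binding factor, had the lowest mean CPM of the 10 members in both groups, between 3.41 and 5.26 CPM in DMSO and between 3.78 and 5.12 CPM in CH.

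Among the Sin3-binding factors the DMSO and CH samples overlapped for each gene. Klf9 (chromosome 19, 23141226 to 23168134), a hormone-induced repressor, ranged from 84.4 to 131 CPM in DMSO and from 103 to 131 CPM in CH. Klf13 (chromosome 7, 63886351 to 63938915) ranged from 99.6 to 127 and from 91.1 to 109.6 CPM. Klf10 and Klf11, known as TGFβ-inducible genes, were at 54.6 ± 9.13 and 26.9 ± 5.44 CPM in DMSO and at 46.7 ± 9.87 and 28.1 ± 0.870 CPM in CH (SD, n = 3). The 95% intervals of the CH to DMSO ratio were 0.914 to 1.42 for Klf9, 0.797 to 1.12 for Klf13, 0.671 to 1.09 for Klf10 and 0.792 to 1.37 for Klf11, so none reached a doubling or a halving in this fit.

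**Figure D2:**
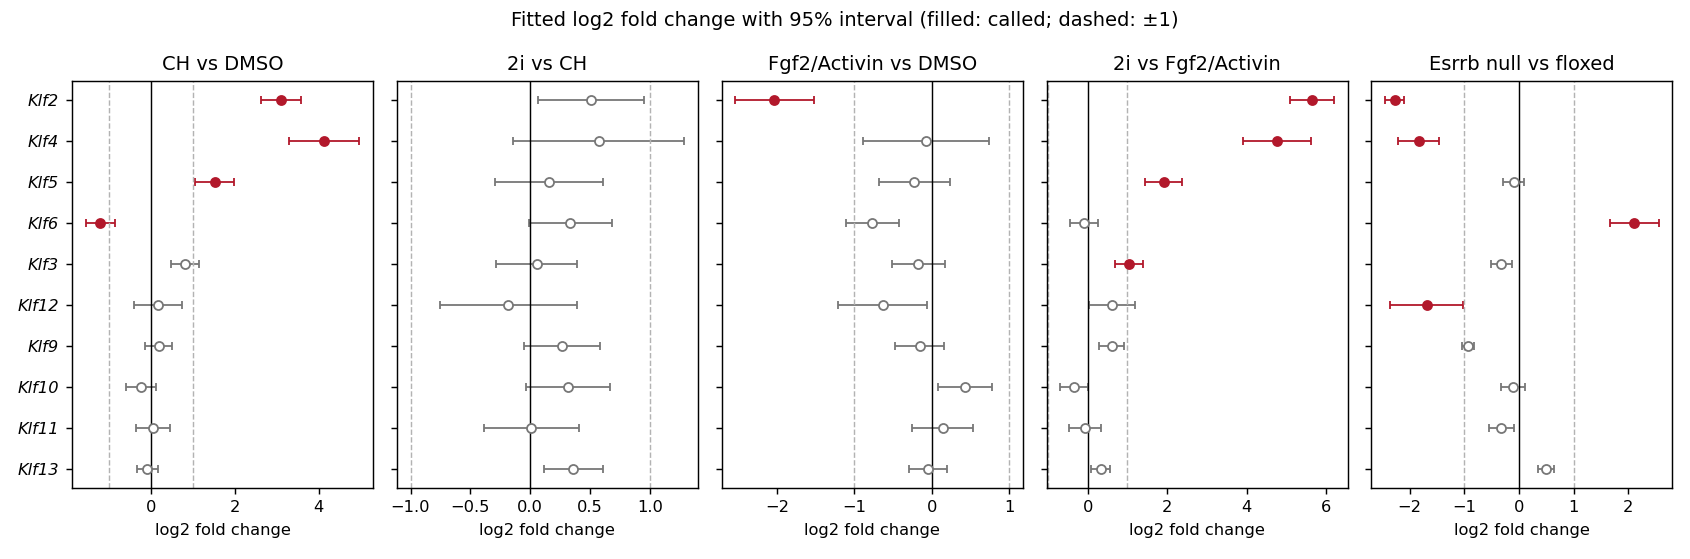
Fitted log2 fold change (horizontal axis) of the 10 factors (vertical axis) in the 5 comparisons, the first-named group over the second. Bars are 95% intervals, filled red points were called, open grey points were not, and dashed lines mark a change of 1. Called members lie on both sides of 0 for CH against DMSO and for Esrrb null against floxed cells, and no member was called for 2i against CH.

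The comparison of 2i with CH reads the Mek inhibitor on top of Gsk3 inhibition. Here 0 of the 10 members were called by edgeR (0.317% of all genes were called higher and 1.67% lower). DESeq2 also called 0, and 2 members, Klf2 and Klf13, had an unadjusted p under 0.05. The estimates were above 0 for 9 of the 10 members, with a median log2 fold change of 0.29 beside -0.00326 over all genes.

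Klf2 was at 229, 176 and 195 CPM in 2i, each above every CH sample, and its ratio to CH was 1.42 (95% interval 1.04 to 1.93, adjusted p = 0.186). Klf4 was at 164, 94.9 and 99.96 CPM in 2i, which overlapped CH, with a ratio of 1.49 (0.905 to 2.44, adjusted p = 0.392). The Klf4 interval was the only one of the 10 that reached above a doubling.

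Klf5 was at 118, 98.5 and 115 CPM in 2i, overlapping CH, with a ratio of 1.11 (0.815 to 1.52). Klf6 was at 78.4, 72.6 and 73.7 CPM in 2i, above CH in every sample and still below every DMSO sample, with a ratio to CH of 1.26 (0.995 to 1.60, adjusted p = 0.267). Klf13 was at 124, 137 and 135 CPM in 2i, also above every CH sample, with a ratio of 1.28 (1.08 to 1.52, adjusted p = 0.0882).

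The pairing of samples by number bears on this comparison. Klf4 differed between 2i and CH by 0.59 on the log2 scale with an adjusted p of 0.000312 under a replicate block, and by 0.63 with an adjusted p of 4.74e-05 without the libraries numbered 1. Without those libraries Klf2 (0.31, adjusted p = 0.00069), Klf6 (0.37, adjusted p = 0.00206) and Klf13 (0.32, adjusted p = 4.26e-05) also passed the p threshold, and none of these reached the fold threshold. The fit without those libraries was added after seeing the data, and it kept the libraries that lay closest together in each group. Among all genes, 326 were called between 2i and CH in the main fit, 672 with the block and 768 without those libraries. More genes thus passed in general, not only these members. Whether the lower p-values reflect the Mek inhibitor or the smaller spread was not tested.

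Fgf2 and Activin move ES cells towards an epiblast-like state. Against DMSO, 0 members were higher and 1, Klf2, was lower (0.902% and 0.347% of all genes), and the median log2 difference of the members was -0.16, beside -0.02 over all genes. Klf2 was at 5.65, 3.38 and 2.92 CPM, below every DMSO sample, and fell by 2.03 on the log2 scale (SE 0.23, adjusted p = 0.000495), to 0.244 of its DMSO level. The call was lost in a fit of only these 6 samples (adjusted p = 0.0175) and in the test against a minimum change (adjusted p = 0.0183).

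Klf4, low in DMSO, was at 5.99, 3.52 and 3.62 CPM in Fgf2/Activin, a ratio of 0.954 (95% interval 0.542 to 1.68). Klf5 was at 35.7, 30.1 and 22.4 CPM, a ratio of 0.856 (0.623 to 1.18). Both overlapped with DMSO, and whether the Klf2 response differed from the others was not tested.

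Klf6 was at 100.2 (100.156), 71.1 and 68.4 CPM in Fgf2/Activin, below every DMSO sample, with a log2 difference of -0.77 ± 0.16 (SE, adjusted p = 0.0175) that was not called. Klf10 was at 79.8, 71.7 and 69.0 CPM against 51.9, 64.8 and 47.1 CPM in DMSO, also without overlap and not called (log2 difference 0.43 ± 0.16, adjusted p = 0.189). Klf6 thus had lower values than DMSO both in Fgf2/Activin, where the naive factors were low, and in CH and 2i, where they were high.

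The widest contrast was between 2i and Fgf2/Activin, where 4 members were higher and 0 lower (9.13% and 14.4% of all genes), with a median log2 difference of 0.61 beside 0.00215 over all genes. This comparison shares its samples with those above and is not a separate line of evidence. Klf2 was 49.9-fold higher in 2i (log2 5.64 ± 0.25, SE, adjusted p = 4.2e-08), Klf4 27.3-fold (4.77 ± 0.39, adjusted p = 2.5e-06) and Klf5 3.76-fold (1.91 ± 0.21, adjusted p = 2.58e-05). The same-numbered ratios of Klf4 were 27.5, 27.0 and 27.7, closer together than the levels themselves.

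Klf3 rose only just past the threshold between Fgf2/Activin and 2i. It was at 59.3, 38.2 and 42.9 CPM in Fgf2/Activin and at 108, 89.4 and 91.9 CPM in 2i, with a log2 fold change of 1.04 ± 0.16 (SE, adjusted p = 0.000222). Its call was lost without Fgf2/Activin replicate 2 (0.92), without Fgf2/Activin replicate 3 (0.98) and without 2i replicate 1 (0.96), and also in the test against a minimum change. Klf12, not called with all samples (0.62, adjusted p = 0.0687), was called at 1.02 without the libraries numbered 1 (adjusted p = 4.57e-05), and Klf9 passed the p threshold at a log2 difference of 0.60.

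In Esrrb null against Esrrb floxed cells, 1 member was higher (Klf6) and 3 were lower (Klf2, Klf4 and Klf12), beside 12.8% and 3.87% of the 14893 genes tested. The median log2 difference of the 10 members was -0.33, beside 0.00214 over all genes.

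Klf2 was at 165, 159 and 169 CPM in Esrrb floxed cells and at 31.0, 37.8 and 32.9 CPM in Esrrb null cells, a fall to 0.207 of its level (log2 -2.27 ± 0.08, SE, adjusted p = 5.99e-07). Klf4 was at 68.1, 43.6 and 45.8 CPM in floxed and at 14.5, 14.98 and 14.8 CPM in null cells, a fall to 0.281 (log2 -1.83 ± 0.17, adjusted p = 3.49e-05). For both genes the groups were far apart, and the null levels lay above those of wild-type cells in DMSO, which were 16.4 ± 3.18 CPM for Klf2 and 4.56 ± 1.68 CPM for Klf4 (SD, n = 3), in another line and at a later time.

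Klf5 was not called. It was at 59.2, 48.5 and 54.7 CPM in floxed and at 53.2, 48.2 and 50.1 CPM in null cells, with overlapping groups and a ratio of 0.933 (95% interval 0.821 to 1.06, adjusted p = 0.32). That interval does not reach down to the ratios of Klf2 and Klf4. In these floxed cells Klf5 was also lower than in wild-type cells in CH, where it was at 99.4 ± 1.70 CPM (SD, n = 3), while Klf2 was not (164 ± 4.99 against 141 ± 16.2 CPM). This was not particular to Klf5. Klf4 also had a lower mean in floxed cells (52.5 ± 13.6 against 80.6 ± 31.0 CPM), with overlapping samples. The means of Klf3, Klf6, Klf11 and Klf12 were lower as well, and those of Klf9, Klf10 and Klf13 were higher.

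Klf6 was at 48.0, 43.5 and 43.9 CPM in floxed cells and at 267, 156 and 161 CPM in null cells. It rose 4.31-fold (log2 2.11 ± 0.20, SE, adjusted p = 4.13e-05), and without the libraries numbered 1 by 1.85 on the log2 scale. Every null sample was more than any floxed sample by a wide margin, and the null replicate 1 was the highest value of Klf6 in the series.

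Klf12, at low counts, fell with Klf2 and Klf4, from 5.31, 3.07 and 3.16 CPM to 1.07, 1.53 and 0.957 CPM. These levels rest on 60 to 100 counts per floxed sample and 20 to 32 counts per null sample, and its log2 fold change of -1.69 ± 0.29 (SE, adjusted p = 0.00116) was not called against a minimum change (adjusted p = 0.0593). Klf3, the other CtBP-binding factor, was at 57.9, 46.8 and 48.2 CPM in floxed and at 39.7, 41.2 and 41.1 CPM in null cells, without overlap, and was not called (log2 -0.32 ± 0.09, adjusted p = 0.0108).

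Among the Sin3-binding factors, Klf9 and Klf13 differed in opposite directions in Esrrb null cells, both below the fold threshold. Klf9 was at 177, 176 and 178 CPM in floxed and at 96.0, 92.4 and 89.3 CPM in null cells (log2 -0.94 ± 0.05, SE, adjusted p = 2.66e-06). Klf13 was at 142, 163 and 155 CPM in floxed and at 206, 216 and 225 CPM in null cells (log2 0.49 ± 0.06, adjusted p = 0.000206). These shifts were much larger than the spread of the replicates. Klf10 gave a ratio of 0.926 (95% interval 0.799 to 1.07) and Klf11 of 0.797 (0.681 to 0.933, adjusted p = 0.0199).

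**Figure D3:**
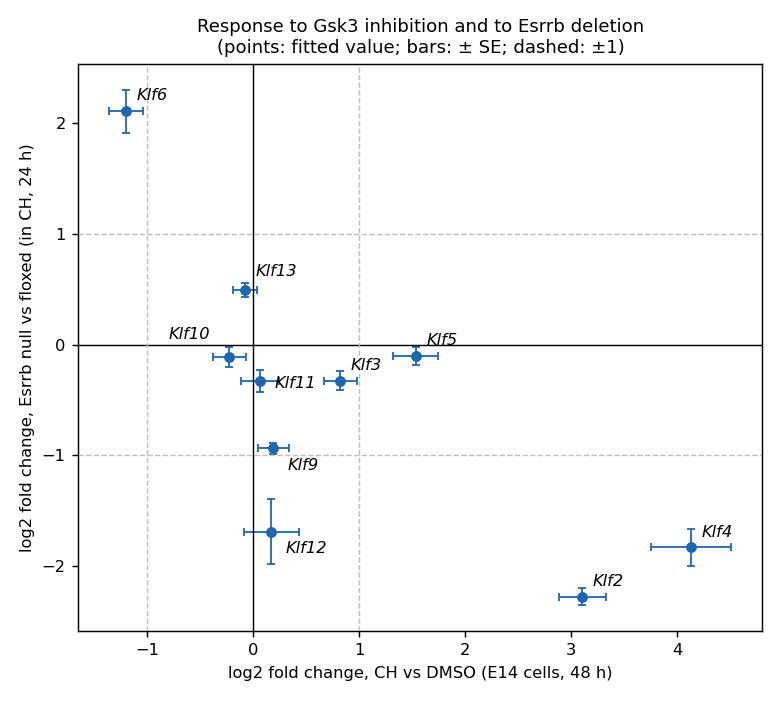
Log2 fold change of the 10 factors for CH against DMSO in wild-type E14 cells (horizontal axis) and for Esrrb null against Esrrb floxed cells, both in CH (vertical axis). Points are fitted values, bars ± SE and dashed lines a change of 1. Klf2 and Klf4 lie at the lower right (3.10 and 4.13 against -2.27 and -1.83), Klf6 at the upper left (-1.20 against 2.11), and Klf5 at 1.53 on the horizontal axis and near 0 on the vertical axis (-0.10).

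Set side by side, the CH and Esrrb comparisons, which share no samples, gave these calls. Klf2 and Klf4 were higher with CH and lower after loss of Esrrb in CH, and Klf6 was lower with CH and higher after loss of Esrrb. Klf5 was higher with CH and not called after loss of Esrrb. Klf12 was called in the Esrrb comparison and not with CH, a difference that was not tested, while Klf3, Klf9, Klf10, Klf11 and Klf13 were called in neither.

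The make-up of the family also differed between cultures. On the scale of CPM per kb of exon length, which allows levels of different genes to be compared, the summed level of the 10 mRNAs was 109 ± 17.4 in DMSO, 201 ± 5.61 in CH, 263 ± 27.3 in 2i and 90.1 ± 13.6 in Fgf2/Activin (SD, n = 3). It was 207 ± 5.34 in Esrrb floxed and 145 ± 11.5 in Esrrb null cells. Klf2, Klf4 and Klf5 together held 60.8% ± 1.94 of this sum in CH, 64.0% ± 4.07 in 2i and 56.3% ± 1.83 in Esrrb floxed cells, but 15.4% ± 1.46 in DMSO, 10.2% ± 1.28 in Fgf2/Activin and 22.9% ± 2.51 in Esrrb null cells.

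In DMSO, Klf6 led at 31.1 ± 5.62 CPM per kb, followed by Klf9 at 21.9 ± 4.89 (SD, n = 3). In CH, Klf2 led at 76.4 ± 8.76, ahead of Klf4 at 26.4 ± 10.2 and Klf9 at 24.9 ± 3.06 CPM per kb, of which the last 2 did not differ beyond their spread. Klf2 also led in 2i and in Esrrb floxed cells, and in Esrrb null cells Klf6 led again, at 44.3 ± 14.3 CPM per kb. In Fgf2/Activin, Klf9, Klf6 and Klf10 lay close together at 19.6, 18.2 and 17.6 CPM per kb, and Klf12 was last in every group, between 0.170 and 0.668 CPM per kb. Some of these leaders depend on the length used. Without length scaling, Klf9 (22.8%) was ahead of Klf2 (21.1%) in Esrrb floxed cells, Klf13 (30.5%) ahead of Klf6 (27.0%) in Esrrb null cells and Klf13 (22.5%) first in Fgf2/Activin. With the length of the longest transcript, Klf10 (22.2%) led in Fgf2/Activin and the leaders of the other 5 groups stayed as above.

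**Figure D4:**
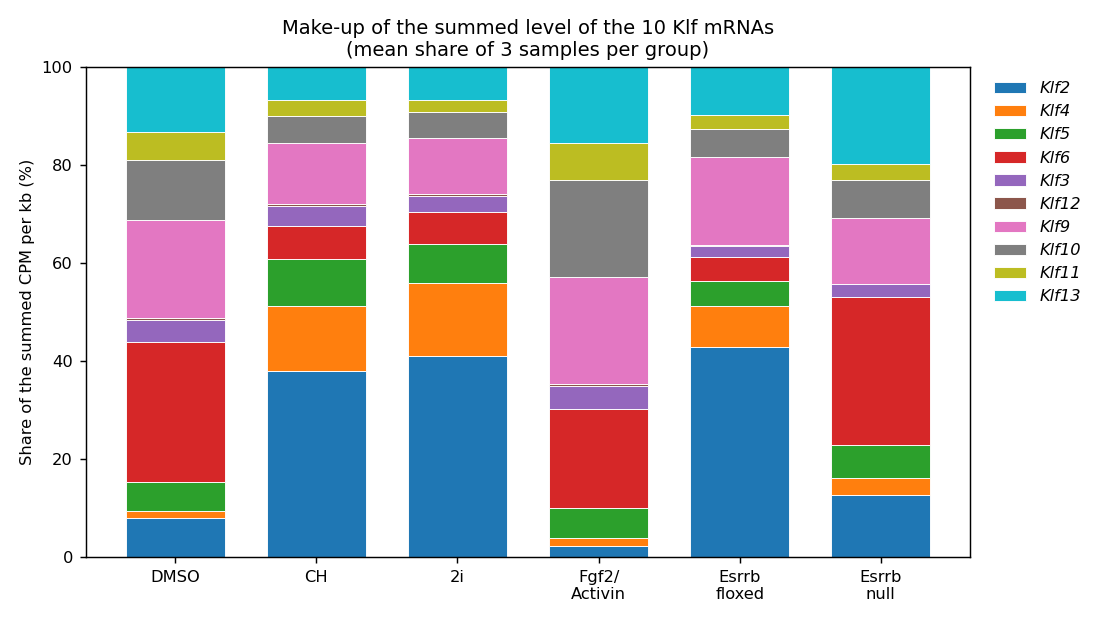
Share of each factor (stacked colours) in the summed CPM per kb of exon length of the 10 Kruppel-like factor mRNAs (vertical axis, percent), as the mean of 3 samples in each of the 6 groups. Klf2 held 38.0% in CH, 41.1% in 2i and 43.0% in Esrrb floxed cells, and Klf6 held 28.6% in DMSO and 30.2% in Esrrb null cells.

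Other cell types could be present in such cultures, and their markers moved with the same conditions. The summed CPM of the mesendoderm markers T, Mixl1, Evx1 and Gsc was 0.501 to 0.964 in DMSO, 457 to 691 in CH, 82.2 to 115 in 2i, 0.662 to 1.58 in Fgf2/Activin, 63.9 to 70.3 in Esrrb floxed and 425 to 539 in Esrrb null cells. Klf2 and Klf4 were high in CH, where this sum was highest, and in 2i and floxed cells, where it was lower. They were low in null cells, where the sum was high, and in DMSO and Fgf2/Activin, where it was lowest. The 4 neural markers Sox1, Pax6, Nes and Tubb3 summed to 117 to 172 CPM in DMSO, 129 to 133 in Fgf2/Activin and 213 to 215 in Esrrb null cells, against 17.7 to 51.5 in the other 3 groups. Within this list Nes was called higher in Esrrb null than in floxed cells and Pax6 and Tubb3 lower, so the sum followed Nes, which is also expressed in other progenitors. No marker of either list was at 0 in a whole group. The 8 pluripotency markers, which test the label of ES cells, summed to 3594 to 3846 CPM in DMSO and 2552 to 3478 in CH, and to 3804 to 4025 in Esrrb floxed against 2817 to 2914 in Esrrb null cells. By edgeR, Sox2 and Nanog were called higher and Utf1 lower in CH than in DMSO, so that sum did not follow each marker. In the Esrrb comparison all 8 had an unadjusted p under 0.05, where 6621 of all 14893 genes tested passed an adjusted p under 0.01, a stricter threshold. Their median log2 difference was -0.68, and 1, Sox2, was called lower. Cdh1 went the other way, at 620, 613 and 617 CPM in floxed and at 881, 774 and 765 CPM in null cells. The other markers of this list had lower means in null cells, as Klf2 and Klf4 did.

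The 6 trophoblast markers summed to 23.9 to 39.5 CPM in DMSO, 73.9 to 119.8 in CH, 44.9 to 48.2 in Esrrb floxed and 48.9 to 58.2 in Esrrb null cells, where Cdx2 and Krt7 were called higher than in floxed cells. Between CH and DMSO, Cdx2 and Tfap2c were called higher and Eomes lower, and Elf5 and Hand1 were not tested. The 6 erythroid and endothelial markers summed to 11.7 to 20.4 CPM in DMSO, 41.5 to 43.1 in CH, 74.7 to 97.1 in 2i, 80.6 to 88.0 in floxed and 49.4 to 57.9 in null cells, with Hbb-bs at 0 in every group and Cdh5 at 0 in DMSO and Fgf2/Activin. Within this list Pecam1 was called higher and Gata1 lower in CH than in DMSO, and in 2i than in Fgf2/Activin. Kdr was called lower in null than in floxed cells. The 6 fibroblast markers summed to 16.9 to 49.6 CPM in DMSO, 6.00 to 8.14 in CH, 18.9 to 27.3 in floxed and 10.4 to 14.6 in null cells, with Twist2 at 0 in CH, 2i and floxed cells. Of the 3 tested, Col1a2 and Pdgfra were called higher and Thy1 lower in null than in floxed cells. Thy1 was also called lower in CH than in DMSO. The 6 primitive endoderm markers summed to 8.81 to 10.4 CPM in DMSO and to 1.12 to 6.31 CPM in the other groups. Within this list Foxa2 was called higher and Sox7 and Dab2 lower in CH than in DMSO. Gata4 was called higher and Sox7 lower in null than in floxed cells. The part of any of these cells in the Klf differences was not tested.

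The 7 other Klf genes of the annotation were tested in the same fits, Klf1 only in the wild-type cultures. In CH, 1 of 7 was higher than in DMSO (Klf8, 15.2 ± 2.44 to 38.9 ± 3.10 CPM) and 2 were lower, Klf7 (35.5 ± 4.66 to 7.60 ± 0.863 CPM, SD, n = 3) and Klf14, which had 18 to 36 counts per sample in DMSO and 2 to 4 in CH. In Esrrb null cells, 2 of 6 were higher, Klf7 (6.32 ± 1.06 to 13.1 ± 0.445 CPM) and Klf14 (1 to 2 against 19 to 33 counts), and 1 was lower, Klf17 (20 to 22 against 3 to 7 counts). Klf7, a factor of neuronal differentiation, and Klf14 thus had the signs of Klf6 in both comparisons. Of all genes tested, 7.51% were called higher and 10.2% lower in CH than in DMSO. In Esrrb null cells these shares were 12.8% and 3.87%. By edgeR and by DESeq2, 0 of the 7 were called between 2i and CH and 0 between Fgf2/Activin and DMSO, with 2 at an unadjusted p under 0.05 in each. In 2i against Fgf2/Activin, Klf8 and Klf15 were higher and Klf7 and Klf14 lower (9.13% and 14.4% of all genes).

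The Sp genes encode the nearest relatives of the Kruppel-like factors and bind the same GC-rich sites. Of 9, 7 were tested in the wild-type cultures, and the broadly expressed Sp1, Sp2, Sp3 and Sp4 were called in none of the 5 comparisons. Sp5, a direct target of Wnt/β-catenin signalling, rose with Sp8 in CH and again in Esrrb null cells. Of all genes, 7.51% were called higher and 10.2% lower in CH, and 12.8% and 3.87% in Esrrb null cells. Sp5 had 0 to 3 counts per sample in DMSO and 4196 to 9022 in CH, and was at 31.6 ± 1.17 CPM in floxed and 124 ± 8.82 CPM in null cells (SD, n = 3). Sp6 had 14 to 18 counts per sample in DMSO and 0 to 1 in CH and was called lower. Sp5 was thus high both where Klf2 and Klf4 were high (CH) and where they were low (Esrrb null cells).

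**Figure D5:**
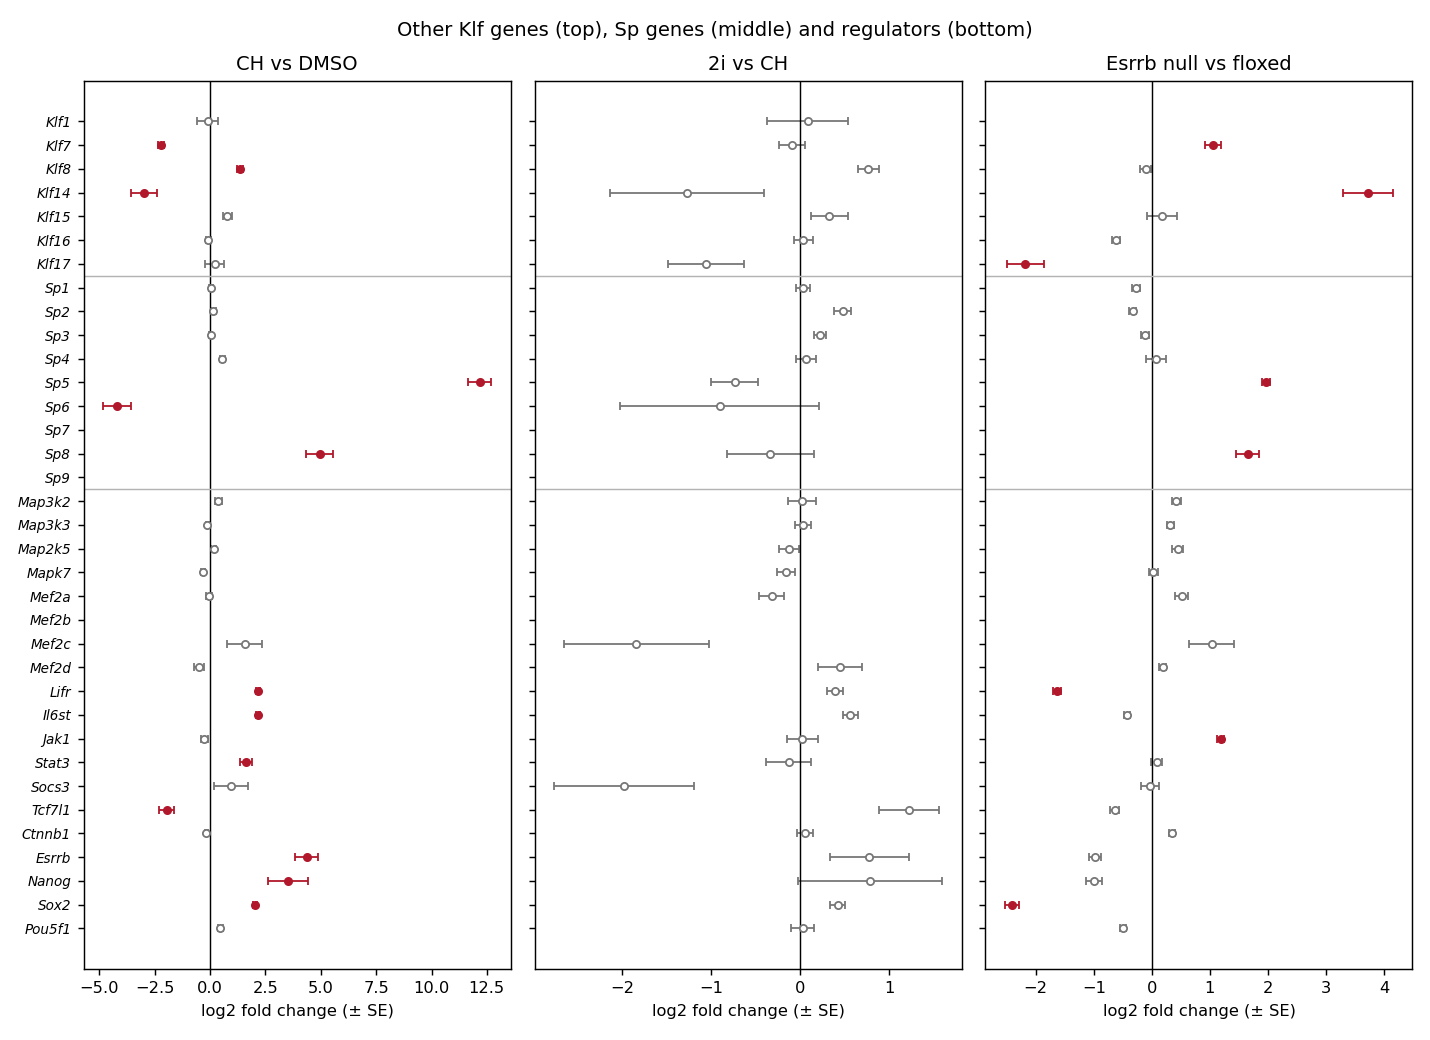
Log2 fold change (horizontal axis, each panel with its own scale) ± SE of the other Klf genes, the Sp genes and genes upstream of Klf2 and Klf4 (vertical axis, in 3 blocks) for CH against DMSO, 2i against CH and Esrrb null against floxed cells. Filled red points were called, open grey points were not, and genes without a point were not tested. Klf7 and Klf14 change sign between the left and the right panel, and no gene was called in the middle panel.

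Kruppel-like proteins act through cofactors. Of 10 cofactor genes (Ctbp1, Ctbp2, Sin3a, Sin3b, Ep300, Crebbp, Kat2b, Hdac1, Hdac2 and Hdac3), 0 were called in any of the 5 comparisons by edgeR or DESeq2, with 3 to 7 at an unadjusted p under 0.05. The 7 came from CH against DMSO and from Esrrb null against floxed cells. There 4750 of all 16413 and 6621 of all 14893 genes passed an adjusted p under 0.01. That threshold is stricter, so at least these shares had an unadjusted p under 0.05. Of 6 genes for the turnover of Klf proteins (Wwp1, Fbxw7, Btrc, Fbxo32, Smurf1 and Stub1), 1 was called, Fbxo32, an F-box protein gene that was lower in CH than in DMSO (log2 -3.50 ± 0.38, SE, adjusted p = 3.34e-05) and in the comparison of 2i with Fgf2/Activin (-2.97 ± 0.37).

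Of 18 genes tested that act upstream of Klf2 and Klf4 in ES or other cells, 6 were higher in CH than in DMSO and 1 was lower. Of all genes, 7.51% were called higher and 10.2% lower. The 6 were Lifr, Il6st, Stat3, Esrrb, Nanog and Sox2, and the 1 lower was Tcf7l1, which encodes the repressor Tcf3. DESeq2 made these calls except that of Nanog, which was at 67.9, 5.92 and 2.78 CPM in the DMSO samples and at 358, 248 and 276 CPM in CH. Lifr and Il6st, the receptor subunits for Lif, rose by 2.17 ± 0.10 and 2.18 ± 0.08 on the log2 scale (SE) and Stat3 by 1.63 ± 0.26. In Esrrb null cells Lifr (log2 -1.63 ± 0.07) and Sox2 (-2.41 ± 0.12) were lower and Jak1 (1.19 ± 0.06) was higher, whereas Stat3 was not called (0.09 ± 0.10, adjusted p = 0.475). DESeq2 called these 3 and also Nanog and Esrrb. Of all genes in this comparison, edgeR called 12.8% higher and 3.87% lower. The kinase route through Map3k2, Map3k3, Map2k5 and Mapk7 to the Mef2 factors, which induces Klf2 and Klf4 in other cells, had no called member in any of the 5 comparisons. Between 2i and CH, edgeR called 0 of the 18, with 7 at an unadjusted p under 0.05, and DESeq2 called 1, Tcf7l1. Of all genes, edgeR called 0.317% higher and 1.67% lower there.

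Over all 18 samples, the genes whose log2 CPM followed each naive factor most closely were searched in the 10489 genes that averaged 5 CPM or more. For Klf5 these were Esrrb (Pearson's r = 0.975), Zfp839 (0.968) and Tfcp2l1 (0.967), although Klf5 itself was not called after loss of Esrrb. For Klf2 they were Ephx2 (0.981), Alg13 (0.981) and Arid5b (0.979), and for Klf4 Zfp59 (0.986), Ash2l (0.982) and Rfx2 (0.982). The samples fall into 6 groups and share replicate numbers, so these values describe the pattern between groups.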

How the data were processed

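RNA sequencing counts of 18 samples, 3 in each of 6 groups, were used. Groups and replicate numbers were taken from the labels, and every column of the table (0 left over) belonged to one sample. The authors prepared poly(A) libraries with a directional kit, used TopHat2 for alignment to mm10 and HTSeq, set to ignore strand, for counting on Ensembl genes (GRCm38), and deposited whole-number counts without normalisation or filtering. The Ensembl release is not given in the sources used here.

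Counts were scaled by TMM and tested with edgeR 4.0.16 (filterByExpr, glmQLFit, glmQLFTest) and limma 3.58.1 in R 4.3.3. The 12 wild-type samples were fitted together (16413 genes kept) and the 6 Esrrb fl/fl samples separately (14893 genes). Calls, at the thresholds of the study, required a Benjamini-Hochberg adjusted p under 0.01 over all genes kept and a log2 fold change beyond 1 in size. The SE was the log2 fold change divided by the square root of F, and 95% intervals used the t distribution of the same fit. The steps were first tested on simulated counts. Symbols, positions and exon lengths came from GENCODE M21, in which 49326 identifiers had a symbol. Reads shared with other genes were checked with blastn 2.17.0 (at least 75 bases at 95% identity), and among the members only Klf3 shared sequence. Python 3.11.15 with matplotlib 3.10.9 made the plots.

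The genes named are the 10 members, the lists of related genes and markers given in the text, and the 3 genes most like each naive factor by Pearson's r. Members, lists and tests were chosen with earlier results of these data known.

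Deviations of same-numbered samples from their group means correlated at 0.347 to 0.832 for every pair, and a replicate block was fitted as an alternative. Different numbers correlated at -0.791 to 0.722, and replicates 2 and 3 did so with each other (0.320 to 0.722) much as with their own number, so the pairing mainly sets replicate 1 apart. The other alternatives were DESeq2 1.42.0 and its size factors, keeping genes of any count above 0, keeping only those with 10 or more counts throughout, glmTreat, no minimum fold change, fits of the 6 samples compared or of all 18, and each replicate left out in turn. Leaving out the libraries numbered 1, and using the longest transcript as gene length, were added after seeing the data. The totals per sample set the precision of genes with few counts, and reads, which carried no molecular identifiers, were counted.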

Additional observations from a re-analysis of the deposited data

How the results depend on the processing

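With the test against a minimum log2 change of 1 (glmTreat), 2 members in place of 4 were called between CH and DMSO and 0 in place of 1 between Fgf2/Activin and DMSO, where a fit of only those 6 samples also called 0. The calls lost under glmTreat were those of Klf5, Klf6, Klf2 (Fgf2/Activin), Klf3 and Klf12, of which Klf2 was also lost in the fit of 6 samples, and the cause was not tested. No member's direction was reversed where it was called. Leaving out 1 replicate at a time, or all libraries numbered 1, gave 4 members called between CH and DMSO, 0 between 2i and CH, 1 between Fgf2/Activin and DMSO, 3 to 5 between 2i and Fgf2/Activin and 4 between Esrrb null and floxed cells. The replicate block, which uses the pairing of samples by number, changed no member's call, with 4, 0, 1, 4 and 4 members called in that order.

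Among all genes, the number called between 2i and CH was 326 in the fit reported, 672 with the replicate block, 605 with DESeq2, 768 without the libraries numbered 1, 100 (28 higher and 72 lower) with only the 6 samples and 47 with glmTreat. Between Fgf2/Activin and DMSO these numbers were 205, 424, 379, 499, 87 and 57. With 1 replicate left out they ranged from 144 to 275 for 2i against CH and from 112 to 171 for Fgf2/Activin against DMSO. Between CH and DMSO glmTreat gave 1308 in place of 2907, and a minimum of 10 counts in every sample 1755. Between 2i and Fgf2/Activin they gave 2231 and 2332 in place of 3857, and glmTreat gave 967 in place of 2485 between Esrrb null and floxed cells. Without a minimum fold change, the number was 4750 for CH against DMSO, 6193 for 2i against Fgf2/Activin and 6621 for Esrrb null against floxed cells. Without length scaling, the share of Klf2 in CH was 18.2% in place of 38.0%, and other members led in 3 of the 6 groups. Depth limits Klf12 most, at 20 to 197 counts per sample.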
